A study of Bos taurus with 4 samples.

Results

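Messenger RNA of 9 genes of glycogen synthesis and breakdown was compared between Limousin (LIM) and Holstein-Friesian (HF) bulls in the semitendinosus, a muscle of the hind leg. The genes were found by matching the RefSeq accession of each array probe to the symbols UGP2, GYS1, GBE1, PPP1R3C, PYGM, PHKG1, PHKA1, PGM1 and EPM2A. A probe was matched for 7 of the 9 genes, out of 6376 genes with a named probe kept for testing. No probe was matched to GBE1, the glycogen branching enzyme, or to PHKA1, the muscle regulatory alpha subunit of phosphorylase kinase, so no level is given for either. Each of the 7 genes had 1 probe, spotted at 2 places on every array.

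The study set LIM, a breed raised for beef, against HF, a breed raised for milk. All bulls were 15 months old, with no treatment in the labels, and the samples were total RNA from the middle of the muscle, trimmed of connective and fat tissue after slaughter. Each of 4 two-colour arrays carried the RNA of 1 LIM bull in the red dye Cy5 and that of 1 HF bull in the green dye Cy3, numbered in the labels as biological replicates 1 to 4. No array had the dyes the other way round, and an effect of dye cannot be told apart from one of breed. All values below come from 4 bulls a breed, and in bulk tissue fewer cells of a type and less RNA per cell cannot be told apart. Hereford bulls, a further breed in the study, were not analysed here.

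Glycogen is the branched glucose polymer that muscle stores as a fuel for contraction. Glucose 6-phosphate is turned into glucose 1-phosphate by phosphoglucomutase and into UDP-glucose by UGP2. Glycogenin starts the chain, glycogen synthase lengthens it and the branching enzyme adds branches. In breakdown, glycogen phosphorylase releases glucose 1-phosphate after it has been switched on by phosphorylase kinase. Phosphorylation switches glycogen synthase off and phosphorylase on, and protein phosphatase 1, held at glycogen by targeting subunits, reverses both.

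Of 42990 spots for bovine transcripts, 32513 to 33527 per array stood well above background in LIM, against 27102 to 28769 in HF, and no spot was saturated. Log2 ratios of LIM over HF, background-corrected and normalized by loess within each array, had a median of 0.02 over the 15856 probes kept, with a median SD between arrays of 0.19. With limma and Benjamini-Hochberg adjustment over all kept probes, 470 probes (2.96%) were higher and 398 (2.51%) lower in LIM at an adjusted p under 0.05. The direction of every ratio follows the dyes in the labels. For GSK3B and every other gene checked it is the opposite of the direction that the study's text gives. The study reports those directions both from its microarrays and from RT-qPCR. It also reports less myostatin (MSTN) protein in the beef breeds by Western blot. Whether the labels name the dyes correctly was not tested. If the dyes were the other way round, higher and lower in LIM would change places in the results below. The 7 genes checked, those also measured by RT-qPCR, each kept 1 sign over the 4 arrays, and the directions of further genes were not checked.

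Among the 7 measured glycogen genes, 1 (GYS1) was higher in LIM, 0 were lower and 6 did not pass the test, beside 2.96% higher and 2.51% lower over all probes (4 higher with median centring in place of loess, 0 with scale normalization between arrays). The median of the 7 mean log2 ratios was 0.25, and the lowest and highest were -0.11 and 0.65. The ratio was above 0 on all 4 arrays for 3 of them (GYS1, PGM1 and EPM2A), as it was for 21.2% of all kept probes. EPM2A was well above background in LIM only and was kept for testing through that channel, so its sign is not independent of the filter. The level in every LIM bull was above that in every HF bull for 2 genes, GYS1 and PGM1, which was so for 9.48% of all kept probes. Every LIM level was below every HF level for 0 of the 7 genes and for 7.35% of all kept probes.

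**Figure D1:**
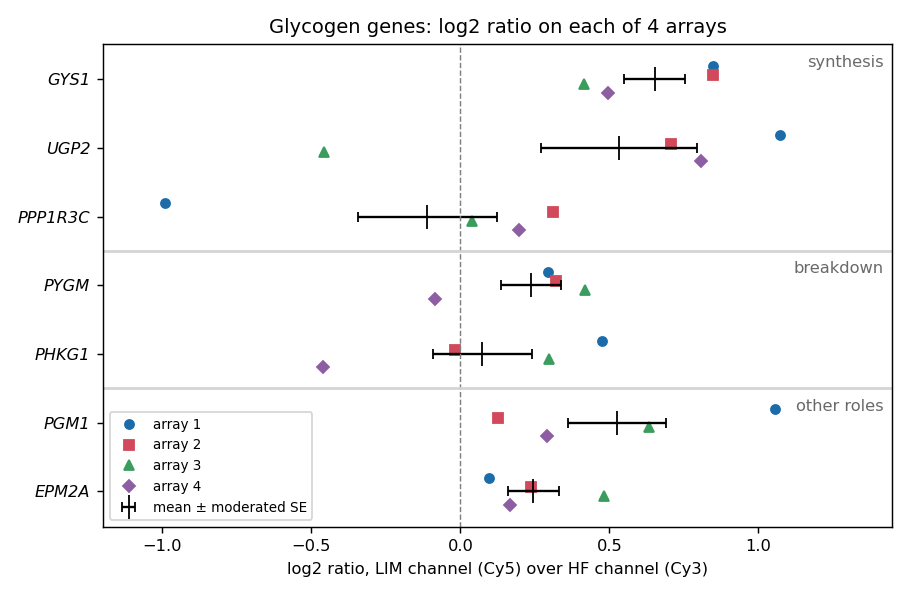
Log2 ratio of the LIM channel (Cy5) over the HF channel (Cy3) for each of the 7 measured glycogen genes, with 1 symbol per array and the mean ± moderated SE in black. GYS1 lies between 0.42 and 0.85 on the 4 arrays and is the 1 gene that passed the test in the fit as reported. UGP2, PPP1R3C, PYGM and PHKG1 each have points on both sides of 0.

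UGP2, which makes the UDP-glucose that glycogen synthase uses, had normalized intensities of 7683, 9720, 7175 and 10209 in LIM bulls 1 to 4, against 3655, 5961, 9860 and 5829 in HF bulls 1 to 4. These intensities are on an arbitrary scale after loess and quantile scaling of the mean brightness, and they can be compared between bulls but not between probes. HF bull 3 had a level inside the LIM range and the other HF bulls lay below all LIM bulls, so the breeds overlapped. The log2 ratios on arrays 1 to 4 were 1.07, 0.71, -0.46 and 0.81. The mean was 0.53 ± 0.26 (moderated SE, n = 4), with an adjusted p of 0.265 by limma. The 95% interval reached from -0.13 to 1.20, so it held both no difference and one of more than 2-fold.

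GYS1, the muscle glycogen synthase, was the member that passed the test. Its levels were 21071, 27874, 22884 and 20285 in LIM bulls, against 11701, 15496, 17146 and 14387 in HF bulls. The lowest LIM bull lay above the highest HF bull. LIM averaged 23028 ± 3409 and HF 14683 ± 2288 (SD, n = 4 each). The log2 ratio was 0.85 on arrays 1 and 2, 0.42 on array 3 and 0.50 on array 4, so all 4 arrays went the same way, with arrays 1 and 2 about equal. The mean log2 ratio was 0.65 ± 0.10 (95% interval 0.39 to 0.91), which is 1.57-fold, with a limma adjusted p of 0.0379. The adjusted p was 0.0857, 0.116, 0.0775 and 0.113 when arrays 1, 2, 3 and 4 were left out in turn, and over all alternatives it lay between 0.0133 and 0.161. The ratio itself was above 0 under all 20 alternatives. Many of these change only the filter, the variance or the adjustment and leave the ratio at 0.65. With all 4 arrays above 0, array weights or leaving out an array could not change the sign either.

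PPP1R3C, a subunit that holds protein phosphatase 1 at glycogen and so favours the active form of glycogen synthase, had levels of 6940, 7330, 7508 and 6927 in LIM bulls, against 13809, 5906, 7310 and 6044 in HF bulls. The LIM bulls lay close together, HF bull 1 stood above all of them, HF bull 3 was among them and HF bulls 2 and 4 were below. The ratios were -0.99, 0.31, 0.04 and 0.20 on arrays 1 to 4. The mean of -0.11 ± 0.23 did not pass the test (limma adjusted p = 0.793), and without array 1 it was 0.18, so its sign rests on that array. It was also above 0, at 0.54, with median centring in place of loess.

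**Figure D2:**
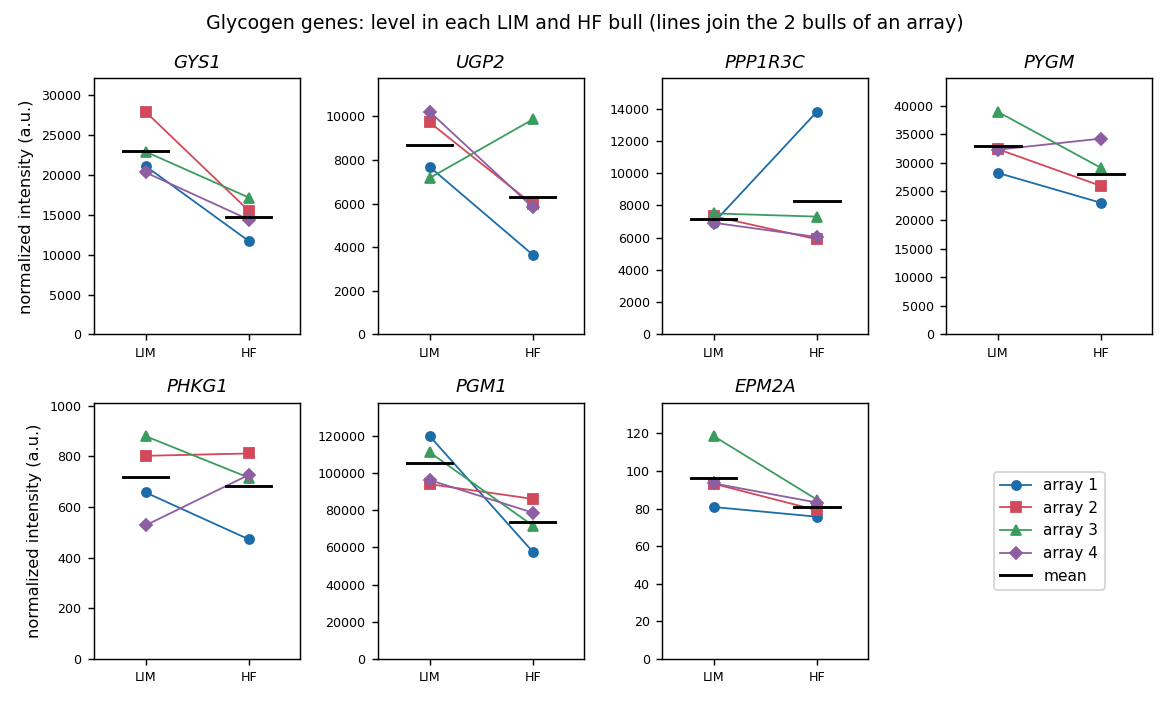
Normalized intensity (arbitrary units, axes from 0) of each measured glycogen gene in the 4 LIM bulls, left, and the 4 HF bulls, right, with lines joining the bulls of 1 array and black bars at the means. GYS1 and PGM1 have no overlap between breeds, HF bull 1 stands apart for PPP1R3C with 13809, and HF bull 3 goes against the other pairs for UGP2 with 9860.

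PYGM, the muscle glycogen phosphorylase, had levels of 28229, 32388, 38903 and 32282 in LIM bulls, against 23011, 25958, 29121 and 34221 in HF bulls. The breeds overlapped because HF bull 4 was above LIM bulls 1, 2 and 4 and HF bull 3 was above LIM bull 1, whereas HF bulls 1 and 2 lay below all LIM bulls. The ratios were 0.29, 0.32, 0.42 and -0.08. Their mean of 0.24 ± 0.10 (95% interval -0.02 to 0.49) had an adjusted p of 0.205 by limma. PYGM was thus not called, although its ratio was above 0 on 3 of 4 arrays.

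PHKG1, the muscle catalytic gamma subunit of phosphorylase kinase, had levels of 657, 802, 880 and 527 in LIM bulls, against 472, 811, 716 and 726 in HF bulls. The breeds were intermingled, and the lowest of the 8 bulls was an HF bull and the highest a LIM bull. The ratios of 0.48, -0.02, 0.30 and -0.46 gave a mean of 0.07 ± 0.16 (limma adjusted p = 0.808). Its sign changed with array weights (-0.00063), without array 1 (-0.06) and without array 3 (-0.00073), so it had no settled direction.

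PGM1, the phosphoglucomutase that works in both synthesis and breakdown, had levels of 120001, 94127, 111293 and 96341 in LIM bulls, against 57718, 86189, 71829 and 78778 in HF bulls. Every LIM bull lay above every HF bull, and the gap was widest on array 1. LIM averaged 105441 ± 12343 and HF 73628 ± 12120 (SD, n = 4 each). The ratios of 1.06, 0.13, 0.63 and 0.29 had a mean of 0.53 ± 0.16 (95% interval 0.11 to 0.94) and did not pass after adjustment, with a limma adjusted p of 0.123. PGM1 had nearly the same mean ratio as UGP2, which had the wider spread between arrays.

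EPM2A encodes laforin, a phosphatase that removes phosphate from glycogen itself. Its probe was dim, with levels of 80.8, 93.2, 118.6 and 93.4 in LIM bulls, against 75.7, 79.1, 84.8 and 83.2 in HF bulls. In HF it was not well above background on any array (1 of 8 spots passed), so the HF level is a bound. The measured means were 96.5 ± 15.8 in LIM and 80.7 ± 4.11 in HF (SD). By the mean log2 levels LIM was 1.18-fold higher, taking for HF the higher of the dimmest signal well above background and the probe's own on each array. This figure leaves out the spread between bulls, and the difference did not pass the test, with a mean log2 ratio of 0.25 ± 0.08 (95% interval 0.03 to 0.46) and a limma adjusted p of 0.144. The ratio was 1.66 with the scanner software's processed signals (adjusted p = 0.0289) and 0.05 with median centring, and over all alternatives the adjusted p lay between 0.0250 and 0.727.

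When the genes were grouped by role, the 3 measured synthesis genes (GYS1, UGP2 and PPP1R3C) had a median ratio of 0.85, 0.71, 0.04 and 0.50 on arrays 1 to 4. The 2 measured breakdown genes (PYGM and PHKG1) had a median of 0.39, 0.15, 0.36 and -0.27. The synthesis genes were thus above the breakdown genes on arrays 1, 2 and 4 and below them on array 3. Over the mean ratios the medians were 0.53 for synthesis and 0.16 for breakdown, beside 0.02 for all kept probes. The difference of 0.38 between these medians stayed above 0 under all alternatives and was 0.14 without array 4. Alternatives that change only the filter, the variance or the adjustment leave it at 0.38 by construction. No test was made of these medians, which rest on 3 and 2 genes.

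Ratios of single genes were also subtracted within each array, which removes a shift common to both probes. GYS1, which had the highest mean ratio of the measured members, came first in most pairs. The mean differences of those pairs had to be above 0 by that choice. The ratio of GYS1 minus that of PYGM was 0.55, 0.53, -0.0014 and 0.58 on arrays 1 to 4, with a mean of 0.41 (SD 0.28), so the genes differed on 3 arrays and were equal on array 3. GYS1 minus PHKG1 averaged 0.58 (SD 0.40) and GYS1 minus PPP1R3C 0.76 (SD 0.73), each above 0 on 4 of 4 arrays. GYS1 minus UGP2 averaged 0.12 (SD 0.54) and GYS1 minus PGM1 0.13 (SD 0.44), each above 0 on 2 of 4 arrays. UGP2 minus PYGM averaged 0.29 (SD 0.81) and was above 0 on 3 of 4 arrays. In an exact sign-flip permutation test (two-sided) of GYS1 against each gene, p was 0.25 for PYGM and 0.125 for PHKG1 and PPP1R3C. After Benjamini-Hochberg adjustment over 6 pairs these were 0.5, 0.375 and 0.375. The same test gave 0.875 for GYS1 against UGP2 or PGM1 and 0.5 for UGP2 against PYGM, before adjustment. With 4 arrays 0.125 is the smallest p this test can give, so no pair could pass 0.05.

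Other genes of glycogen turnover were taken from 4 lists of 56 genes in all, of which 18 were measured. Of these 2 were higher, 1 was lower and 15 did not pass, with a median log2 ratio of 0.06, against 2.96% higher and 2.51% lower over all probes (9 past the test with median centring, 3 with scale normalization). Measured members of each list numbered 3 of 11 for synthesis, 2 of 8 for breakdown, 7 of 25 for kinases, phosphatases and other proteins that set their activity, and 6 of 12 for glucose supply.

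Neither of the 2 other breakdown genes given here passed. PHKG2, the other catalytic gamma subunit of phosphorylase kinase, and PYGB, the brain phosphorylase, had ratios of 0.22 ± 0.07 and 0.02 ± 0.07 and did not pass (limma adjusted p = 0.143 and 0.897).

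None of the 3 other synthesis genes passed in the fit as reported. GYG1, the glycogenin that primes the chain, had a ratio of 0.49 ± 0.11, above 0 on all 4 arrays (limma adjusted p = 0.0676), and passed with median centring, at 1.19 (0.0168, with 0.0168 to 0.198 over all alternatives). Its levels were 28050 to 34568 in LIM and 16796 to 24770 in HF, with no overlap. PPP1R3B, another subunit that brings protein phosphatase 1 to glycogen, had the opposite sign, with levels of 248, 262, 186 and 181 in LIM bulls against 377, 295, 415 and 311 in HF bulls. All LIM bulls lay below all HF bulls, and the mean ratio of -0.68 ± 0.16 had a limma adjusted p of 0.0771. PPP1R3B passed with an offset of 10 (0.0499), with an intensity trend and robust prior (0.0470) and in the unpaired fit (0.0439), and its adjusted p lay between 0.0439 and 0.223 over all alternatives. PPP1R3B and GYG1 both passed the methods' t-test with its fold limit as well. The targeting subunits thus gave values on both sides of 0, with PPP1R3F at 0.06 ± 0.08 and PPP1R3C as above.

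Among the regulators, GSK3B, a kinase that switches glycogen synthase off, was higher in LIM by the dyes in the labels. In the study GSK3B was lower in the beef breeds, also by RT-qPCR. Its levels were 206, 218, 264 and 264 in LIM bulls, against 172, 169, 186 and 190 in HF bulls, with no overlap. The mean ratio was 0.40 ± 0.07 (1.32-fold, limma adjusted p = 0.0441). Its call was lost with processed signals (0.0535), the series value table (0.0507) and the unpaired fit (0.0513), its ratio reached 0.69 with median centring, and its adjusted p lay between 0.0262 and 0.154 over all alternatives. The related kinase GSK3A had 0.36 ± 0.07 and did not pass (limma adjusted p = 0.0600).

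**Figure D3:**
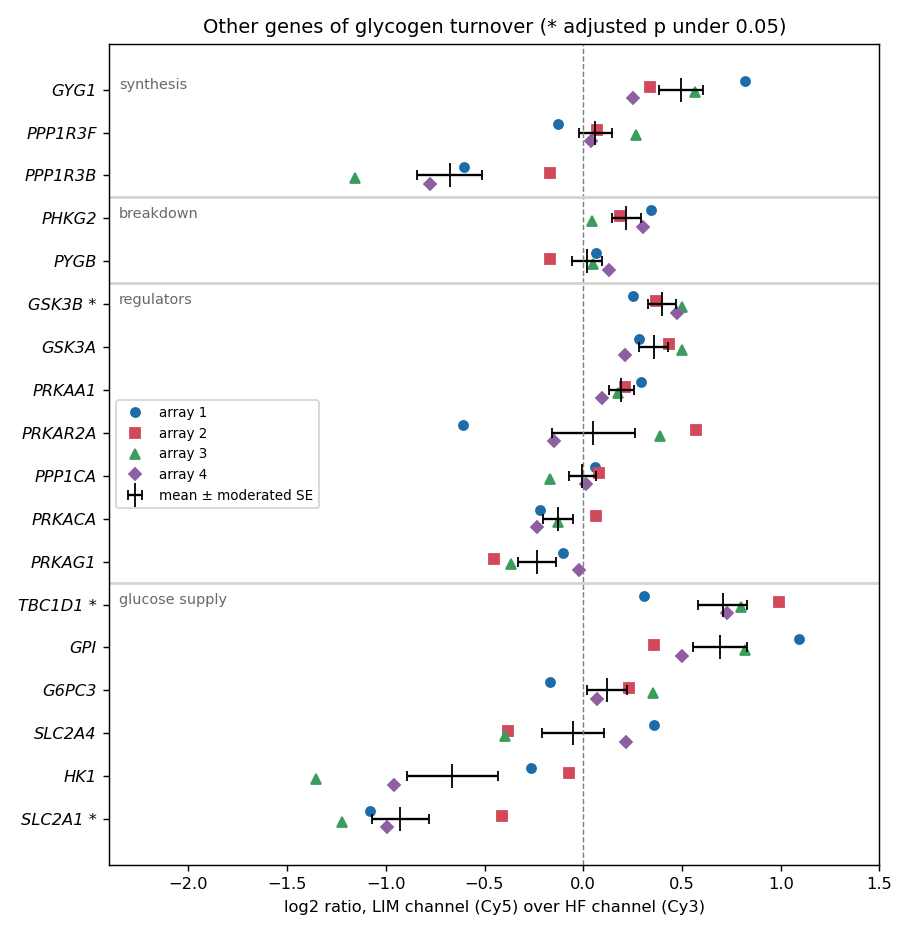
Log2 ratio of the LIM channel over the HF channel for the 18 other measured genes of glycogen turnover, grouped by role, with 1 symbol per array, the mean ± moderated SE in black and an asterisk at an adjusted p under 0.05. GSK3B and TBC1D1 are marked on the higher side and SLC2A1 on the lower side, and PPP1R3B and HK1 lie below 0 on all 4 arrays without a mark.

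Of the genes that bring glucose into the muscle fibre, TBC1D1, which controls the movement of the glucose transporter GLUT4 to the cell surface, was higher in LIM. It had 455, 569, 634 and 502 in LIM bulls, against 367, 286, 365 and 303 in HF bulls, with no overlap and a mean ratio of 0.71 ± 0.12 (limma adjusted p = 0.0440). SLC2A1, the glucose transporter GLUT1, was lower, with 139, 102, 110 and 106.6 in LIM bulls against 294, 136, 257 and 212 in HF bulls. The ranges of SLC2A1 touched, because LIM bull 1 was just above HF bull 2, and the ratio was below 0 on all 4 arrays, with a mean of -0.93 ± 0.15 (limma adjusted p = 0.0379). SLC2A1 had -1.78 with processed signals and -1.76 with the series value table. With no filter on dim probes neither SLC2A1 (adjusted p = 0.0528) nor TBC1D1 (0.0585) passed, and over all alternatives the adjusted p lay between 0.00898 and 0.166 for SLC2A1 and between 0.0191 and 0.172 for TBC1D1. SLC2A4, which is GLUT4 itself, had a ratio of -0.05 ± 0.16 (limma adjusted p = 0.864). GPI, which interconverts glucose 6-phosphate and fructose 6-phosphate, had 0.69 ± 0.14 (limma adjusted p = 0.0542), with no overlap of levels between breeds. GPI passed with no background correction, an offset of 10, median centring or a filter for both channels well above background. It also passed with an intensity trend and robust prior and by the methods' t-test with its fold limit. All 3 of the calls among these other genes were lost when any 1 array was left out, as was that of GYS1. In those fits with 3 arrays the calls over all probes numbered 0 without arrays 1, 2 or 4, and 15 higher and 36 lower without array 3.

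The fibre types of a muscle differ in how much they use glycogen, and their markers were read on the same arrays. Of 12 fast-fibre markers 7 were measured, of which 2 were higher in LIM (PVALB with a mean log2 ratio of 1.90 and TNNC2 with 0.68) and 0 lower, beside 2.96% higher and 2.51% lower over all probes. The mean ratios of the 7 ran from -0.51 to 1.90, with 5 above 0, a median of 0.48 and array medians of 0.29 to 0.56. Those below 0 were the myosins MYH2 (-0.51) and MYH1 (-0.04), neither of which passed. Their summed level was 798685 to 891477 in LIM and 643650 to 709845 in HF, with no overlap. Probes are not on a common scale, so this sum and those below weigh the brightest probes most. No share over all probes was computed for sums. Of 9 slow-fibre markers 7 were measured, of which 0 were higher and 1 was lower (MYL3 with a ratio of -0.74). Their mean ratios ran from -1.12 to -0.03, with 0 above 0, a median of -0.88 and array medians of -1.89 to -0.01. Their summed level was 187249 to 299646 in LIM and 331589 to 764503 in HF, again with no overlap. All 7 measured fast-fibre and all 7 measured slow-fibre markers were above background in both breeds, and the part of fibre type in the ratios of GYS1, PGM1 and the other genes was not tested.

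The label of the tissue was met by the general muscle markers, since 7 of 10 were measured and 0 of these were below background in either breed. MB (myoglobin) was higher in LIM among them, with a mean log2 ratio of 1.02, and the other 6 did not pass. The mean ratios of these 7 ran from -1.06 to 1.02, with 3 above 0 and a median of -0.38. Markers of other cell types were also present, and their counts stand beside the same shares over all probes. Of 6 fibroblast markers 1 was higher (COL3A1), with mean log2 ratios from -0.27 to 2.53, 4 of them above 0. Of 5 adipocyte markers 1 was lower (CFD), with ratios from -1.17 to 0.64, 4 of them above 0. Of 5 smooth muscle markers 1 was lower (LMOD1), with ratios from -0.43 to -0.15, and 0 were called by limma among 3 endothelial, 4 macrophage and 3 blood markers. The macrophage markers had mean ratios from -0.83 to -0.17, with 0 above 0 and a median of -0.55. Ratios ran from -0.22 to -0.03 for the endothelial and from -0.15 to 0.19 for the blood markers. The fibroblast list had a median log2 ratio of 0.90 and a summed level of 22767 to 43060 in LIM and 11427 to 24503 in HF. The part of these cells in the glycogen gene ratios was not tested.

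The normalization within arrays bore on the size of every ratio. After loess 54.1% of the called probes were higher in LIM (470 higher and 398 lower), whereas after centring each array on its median 92.8% were (3525 higher and 275 lower), and the median of all kept probes then moved to 0.25. With centring GYS1 had a ratio of 1.34, PGM1 1.25, UGP2 1.20 and PYGM 0.94, and these 4 genes passed. Bright probes as a whole were high in that setting, with a median of 0.66 for probes of a log2 intensity over 14. Relative to the median of probes of like intensity the ratios were 0.68 for GYS1, 0.59 for PGM1, 0.53 for UGP2, 0.28 for PYGM, 0.12 for PHKG1 and -0.13 for PPP1R3C, close to their values after loess. This step and loess both remove a trend with intensity, so the likeness cannot tell which scale is right. EPM2A had 0.05 with centring and 0.13 relative to probes of like intensity.

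**Figure D4:**
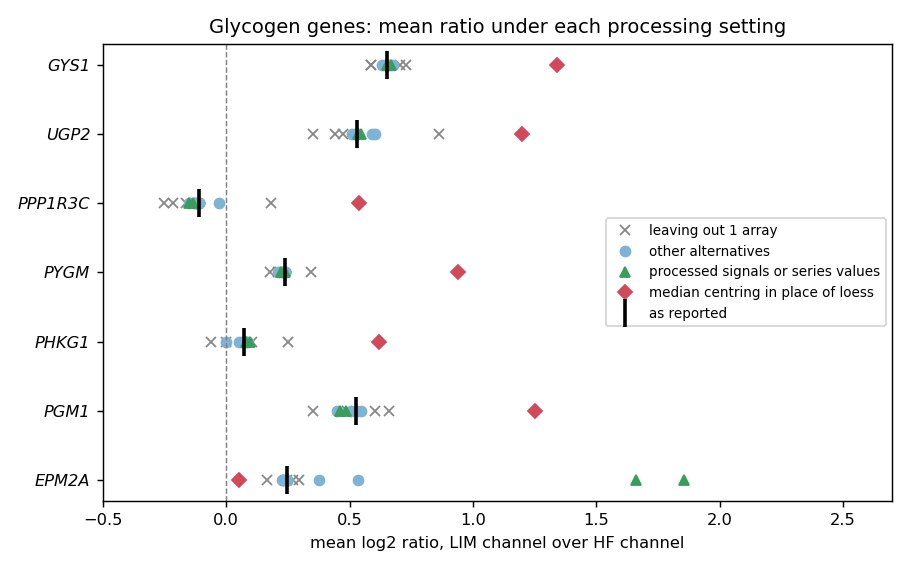
Mean log2 ratio of LIM over HF for each measured glycogen gene under the settings tried, with black bars for the reported value, crosses for fits without 1 array, circles for other alternatives, triangles for processed signals or the series value table, and diamonds for median centring. GYS1 lies between 0.59 and 1.34 and stays above 0 throughout, PPP1R3C and PHKG1 have values on both sides of 0, and EPM2A ranges from 0.05 to 1.86.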

How the data were processed

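RNA of semitendinosus muscle of LIM and HF bulls was hybridised to 4 two-colour Agilent bovine arrays. Per the file headers the authors quantified the spots with Feature Extraction 10.7.3.1. The deposited intensity values give, for each dye, the median brightness of a spot and of the area around it. The deposited log10 ratios, red (Cy5) over green (Cy3), also make up the series value table, with a largest difference of 0 and column medians of 0, so scale and direction are those of the scanner files. Mean foreground signals were not in the files and the medians were used.

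Background was corrected by normexp (offset 50), and log2 ratios were normalized by loess within arrays, control spots having weight 0. Between 6 and 10 outlier spots per array were left out and spots of a probe were averaged. Of 21475 probes 15856 were kept, those well above background on 3 or more arrays in 1 of the channels. The mean log2 ratio was tested against 0 (two-sided) by lmFit and eBayes of limma 3.58.1, run under R 4.3.3, and p-values were adjusted by Benjamini-Hochberg over all kept probes. The fit was tested on simulated data. Across probes, which are not independent replicates, ratios of different arrays correlated with r from 0.40 to 0.60. Precision is limited by the number of arrays.

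Levels are per channel after loess and Aquantile. Accessions were matched to RefSeq gene symbols (assembly ARS-UCD2.0), which named 8297 probes, and each gene is given by its brightest kept probe. No coordinates are given, since the arrays were designed on a different assembly. Duplicate spots of the measured genes differed by at most 0.04 (PGM1) to 0.26 (EPM2A) on the log2 scale. The 4 arrays shared 1 slide and 1 scan, which left no batch to fit.

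All 9 member genes are given. Of each further list the genes past the test are named, or the 2 with the smallest unadjusted p where none passed, with GSK3B in any case. Of marker lists only genes past the test are named, apart from MYH1 and MYH2. PHKG2, PYGB, PPP1R3F, GSK3A, SLC2A4, HK1, GPI, MYH1 and MYH2 were named after their values were seen. Members and lists were chosen with earlier results of these data known, and some pathway genes are not reported here and are left out of the counts of the lists.

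Alternatives were the scanner's processed signals, no background correction, an offset of 10, median centring, centring on kept probes, scale normalization, other filters on dim probes, keeping outlier spots, limma with a trend and robust prior or with array weights, an unpaired fit of the channels, the methods' t-test (with its fold limit of 1.3, or after adjustment), the series value table, averaging a gene's probes, and fits without each array.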

Additional observations from a re-analysis of the deposited data

Results flagged for a closer look

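In 26 sets of 4 values (the ratios of the named genes and the levels of the measured glycogen genes in each breed), Dixon's ratio marked 0 sets for a sample far from the others, where chance would give about 1.3.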

How the results depend on the processing

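Of the 7 measured glycogen genes 1 passed as reported, 4 with median centring in place of loess, 0 with scale normalization, 0 by the methods' t-test after Benjamini-Hochberg adjustment, and between 0 and 0 without single arrays. Of the 18 other pathway genes 3 passed as reported, 5 with an offset of 10, 5 with an intensity trend and robust prior, 9 with median centring, 1 with no filter on dim probes, 6 by the methods' t-test with its fold limit, 0 after its adjustment, and between 0 and 0 without single arrays. With median centring the medians were 1.20 for synthesis and 0.78 for breakdown. PPP1R3C turned positive with median centring (0.54) and lay between -0.25 and 0.18 without single arrays. PHKG1 turned negative with array weights (-0.00063) and lay between -0.0605 and 0.25 without single arrays.

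GYS1 lost its call under 8 of 20 alternatives: processed signals (adjusted p = 0.0512), scale normalization (0.0542), the series value table (0.0507), the adjusted t-test (0.161) and each fit without 1 array. EPM2A was 1.66 with processed signals and 1.86 with the series value table, and could not be fitted where both channels had to be well above background. The cause of these changes was not tested. The ratio within an array already pairs its bulls. No paired analysis was possible beyond this because the samples form 1 group of ratios.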

Other observations

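For PPP1R3C and UGP2 the spread lay mostly in the HF bulls. On the log2 scale the SD of the level of PPP1R3C was 0.06 in LIM and 0.57 in HF, and that of UGP2 was 0.25 in LIM and 0.58 in HF (n = 4 each). The HF spread of PPP1R3C came mostly from HF bull 1, with 13809 against 5906 to 7310 in the other HF bulls. SLC2A4 went the other way, with 0.38 in LIM and 0.15 in HF. These spreads were not tested. HK1, which traps glucose in the fibre as glucose 6-phosphate, had every LIM bull (571 to 787) below every HF bull (828 to 1480), with a ratio of -0.66 ± 0.23 that did not pass the test (limma adjusted p = 0.150).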
